A study of Mus musculus with 28 samples.

Results

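H/ACA box small nucleolar RNAs (snoRNAs), whose mouse symbols start with Snora, and small Cajal body-specific RNAs (scaRNAs) were followed through the blood plasma of mice of 5 ages. Of the 80668 RNA rows in the deposited table, 93 belong to these families, 42 Snora rows of the class snoRNA and all 51 rows of the class scaRNA. They were chosen by class and symbol and not by any measured value, though with earlier results of these data known. The 93 rows carry 86 symbols, since 7 symbols have 2 rows. The 1332 snoRNA rows without a Snora or Snord symbol were left out, although some may be H/ACA RNAs as well.

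The animals were 14 wildtype female C57BL/6N mice, aged 2 months (3 animals), 6 months (4 animals), 8 months (3 animals), 12 months and 18 months (2 animals each). Each mouse gave 1 small RNA library of an ultracentrifugation pellet enriched in extracellular vesicles (EVs) and 1 of the EV-depleted fluid above it, called plasma here, 28 libraries in all. No treatment was given, blood of different animals was not pooled, and platelets, large vesicles and debris had been spun out beforehand. The labels of plasma replicates 2 and 3 at 2 months share 1 code, so only the replicate number ties these to an EV library. All EV libraries carry lower running numbers in the labels than all plasma libraries, so the order of numbering and the fraction cannot be told apart. The comparisons ask whether these RNAs differ between the fractions, whether they change with age in either, and whether the age trends differ.

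H/ACA snoRNAs fold into a pair of hairpins joined by the H box and ended by the ACA box, and with the proteins dyskerin, Nop10, Nhp2 and Gar1 they guide the conversion of uridine to pseudouridine in ribosomal RNA. Most are cut from introns of other genes and stay in the nucleolus. The scaRNAs do the corresponding work, pseudouridylation or 2'-O-methylation, on spliceosomal snRNAs in Cajal bodies. Snora73, known as U17, is an exception among H/ACA snoRNAs in that it is needed for the cleavage of pre-ribosomal RNA. The members are 76 to 414 nt long and the libraries are of small RNA, and the table does not tell which stretch of a member its reads cover.

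The sequences of the RNAs that carry most of the signal are shown from GENCODE M21 on GRCm38, where all 93 transcripts were found in the same version. For the Snora members in the next lines, capitals mark the letters ACA 3 bases before the 3' end and, in the middle of the RNA, the letters ANANNA of the H box.
Snora73a: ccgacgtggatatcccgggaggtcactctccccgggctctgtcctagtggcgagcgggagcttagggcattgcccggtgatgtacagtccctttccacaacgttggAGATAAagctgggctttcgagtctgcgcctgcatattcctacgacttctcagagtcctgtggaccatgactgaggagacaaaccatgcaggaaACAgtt
Snora73b: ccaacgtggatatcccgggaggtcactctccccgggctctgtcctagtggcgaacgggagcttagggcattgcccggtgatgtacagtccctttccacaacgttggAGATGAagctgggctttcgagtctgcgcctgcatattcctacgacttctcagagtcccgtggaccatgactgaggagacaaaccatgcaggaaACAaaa
Snora2b: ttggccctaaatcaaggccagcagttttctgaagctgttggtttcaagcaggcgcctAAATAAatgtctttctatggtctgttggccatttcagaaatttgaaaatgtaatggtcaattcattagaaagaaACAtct
Snora7a: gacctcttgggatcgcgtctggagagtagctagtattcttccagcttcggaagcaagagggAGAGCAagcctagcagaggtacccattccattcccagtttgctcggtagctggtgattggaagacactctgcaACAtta
Snora73a lies at chr4:132352775-132352979 and Snora73b at chr4:132352322-132352526, both 205 nt long, on the minus strand and inside Rcc1 and its noncoding neighbour Snhg3. They agree at 198 positions and differ at 7, which counted from the 5' end are G3A, G54A, A111G, T164C, G203A, T204A and T205A, with the base of Snora73a first. Snora2b is at chr15:98526346-98526482 within Kansl2, and Snora7a at chr6:115807975-115808114 within Rpl32, both on the minus strand.

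The ACA letters stood 3 bases before the end in 35 of the 42 Snora rows (83.3%) and in 25 of the 51 scaRNA rows (49.0%), on the transcript strand. Among Snord rows, the C/D box snoRNAs, 0 of 84 with a sequence had them there, as did 13 of 1333 snRNA rows (0.975%). The ANANNA letters, searched between 30% and 70% of the length, were less particular, being present in 95.2% of Snora rows and 51.2% of Snord rows. Of the 93 members 69 lie inside a longer gene on the same strand. An annotated exon of it overlaps 25 of them, so fragments of a host transcript could not be kept apart from the member there. This limit falls mostly on the Snora rows, which are 23 of the 25. Among them are Snora73a, Snora81, Snora16a, Snora44, Snora61, Snora7a, Snora2b, Snora74a, Snora65 and Snora70.

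A different set of capitals serves 3 members with a place of their own in the results. Snora81 had the largest difference between the fractions and does not carry ACA at that position in its annotated form, so it is written without capitals. Scarna3a and the row named Mir1839, which the annotation classes as a scaRNA, contain miRNAs, shown in capitals.
Snora81: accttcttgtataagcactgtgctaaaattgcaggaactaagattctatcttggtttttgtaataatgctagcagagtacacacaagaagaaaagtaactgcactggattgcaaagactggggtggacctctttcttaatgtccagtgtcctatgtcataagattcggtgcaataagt
Scarna3a: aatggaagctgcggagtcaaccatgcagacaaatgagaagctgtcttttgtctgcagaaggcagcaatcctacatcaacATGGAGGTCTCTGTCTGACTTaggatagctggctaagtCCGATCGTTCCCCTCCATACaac
Mir1839: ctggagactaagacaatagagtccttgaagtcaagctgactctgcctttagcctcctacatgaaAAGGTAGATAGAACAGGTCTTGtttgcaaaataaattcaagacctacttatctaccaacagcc
Snora81 is at chr16:23110756-23110933 on the plus strand, inside Eif4a2. Scarna3a is at chr1:159340283-159340422 within Cop1, and Mir1839 at chr7:81529855-81529981 within an exon of the noncoding gene 2900076A07Rik, both on the plus strand.

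The members made up a small part of every library. Total counts ran from 4764338 to 52753818 in EV libraries and from 928651 to 23905651 in plasma libraries, and member counts from 1012 to 21344 and from 50 to 1836. Members took 0.0240% ± 0.0163 of all counts in EVs and 0.00641% ± 0.00364 in plasma (mean ± SD, n = 14 each). All 93 rows had at least 1 read somewhere, with 56 to 85 rows detected per EV library and 24 to 80 per plasma library. RPM is the deposited value, the count divided by 1 number per library that is not its total count. RPM values are thus not shares of a common total, and rRNA rows alone summed to 1.65e+06 RPM in EV replicate 2 of 12 months. One read is worth at most 0.217 RPM in an EV library and at most 1.70 RPM in a plasma library, so low plasma values are coarse.

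Several rows did not count separate RNAs. Both rows of Snora16a, of Gm25820, of Gm22813 and of Gm22897 had the same counts in all 28 libraries. Snora73a and Snora73b differed by at most 10% in 26 of 28 libraries and by 11.4% in the widest case, with 17313 and 16721 counts in all. Reads of these near-copies cannot be told apart well enough to describe the copies separately, and their summed level may hold the same reads more than once. In addition, 72 of the 93 members share a stretch of 20 bases with at least 1 other annotated gene. For 70 of the 72 these were 1 to 9 genes, while Snora17 shared one with 125 genes and Gm22009 with 2151, so the values of this pair in particular are uncertain.

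Snora73 was the most abundant member, and it was higher in EVs than in plasma in every mouse. Together both rows took 51.4% of the 66180 member counts. Per 100 nt of RNA, Snora73a averaged 35.9 RPM over the 28 libraries, against 12.5 for Snora81, 7.57 for Snora16a, 4.91 for Snora7a and 3.43 for Snora74a. The 51 scaRNA rows together held 5942 counts.

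The Snora73a level in EVs was 51.9, 117 and 27.7 RPM in the mice of 2 months, and 43.6, 74.8, 78.6 and 13.3 RPM at 6 months. It was 216, 219 and 110 RPM at 8 months, 208 and 302 RPM at 12 months, and 279 and 46.2 RPM at 18 months. In plasma it was 19.1, 10.1 and 17.6 RPM at 2 months and 15.3, 14.5, 22.9 and 5.05 RPM at 6 months. The remaining plasma libraries gave 60.1, 25.5 and 34.3 RPM at 8 months, 10.6 and 16.8 RPM at 12 months and 7.83 and 13.03 RPM at 18 months. The fractions overlapped, since the highest plasma value exceeded 5 of the 14 EV values, but within each of the 14 mice the EV value was the higher one.

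The log2 fold change of Snora73a, EV over plasma with age as a covariate, was 3.11 (SE 0.48, adjusted p = 2.59e-05, edgeR), and that of Snora73b was 3.08 (SE 0.48, adjusted p = 2.81e-05). The RPM ratio within a mouse was smaller than the fitted 8.66-fold for most animals, with a median of 3.57 and a range of 1.57 to 35.6 for Snora73a. Scaling matters here: with libraries scaled by the RPM divisor or by the total count in place of TMM, the median log2 fold change of all rows tested moved from -0.02 to -0.45 and -0.51, and that of Snora73a to 2.57 and 2.46. Directions stated for the members are relative to the TMM scaling unless another is named.

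Summed over families, Snora RNAs stood well above plasma in EVs and scaRNAs much less so. All 42 Snora rows together reached 408 ± 377 RPM in EVs and 78.3 ± 43.4 RPM in plasma (mean ± SD, n = 14 each), and the EV sum was higher in 14 of 14 mice. The 51 scaRNA rows reached 32.4 ± 17.3 RPM in EVs and 21.8 ± 5.86 RPM in plasma, higher in EVs in 11 of 14 mice. Snora73 made up 57.2% ± 15.6 of the member counts in EVs and 36.6% ± 11.7 in plasma, while scaRNAs made up 11.5% ± 11.1 and 24.6% ± 10.3. In bulk fractions, fewer vesicles or particles with an RNA and less of it in each cannot be told apart.

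**Figure D1:**
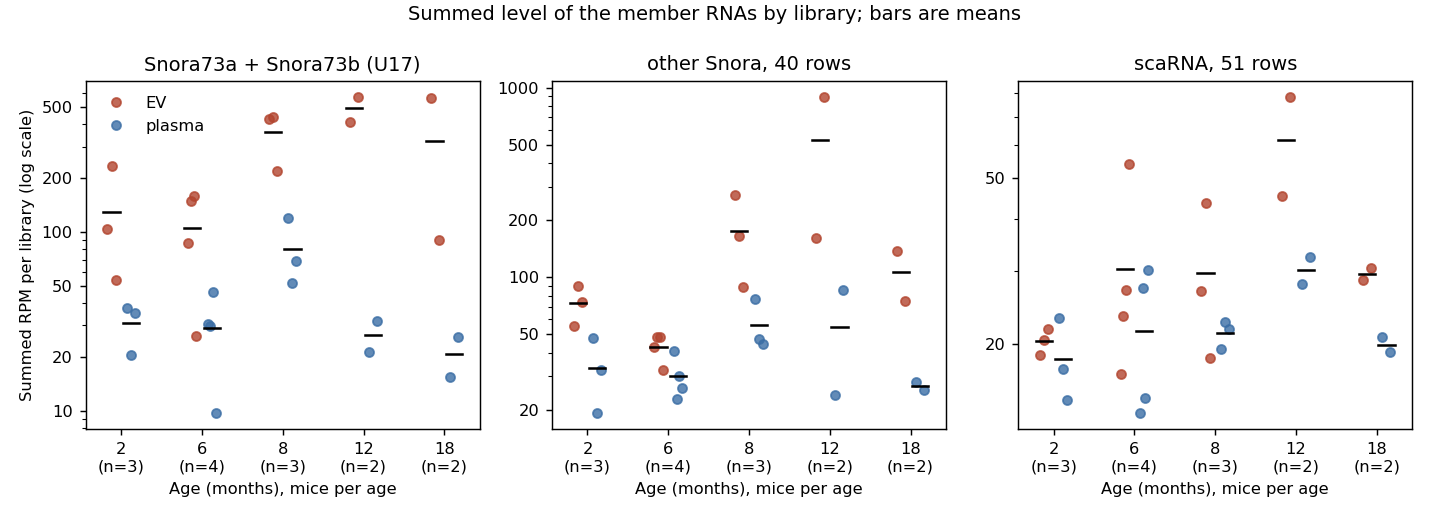
Summed RPM of Snora73a and Snora73b, of the 40 other Snora rows and of the 51 scaRNA rows in each library (points; log axes), by age in months, with EV and plasma libraries side by side and bars at the group means. EV sums of Snora73 run from 26.3 to 570 RPM and plasma sums from 9.65 to 120 RPM, whereas scaRNA sums overlap between the fractions at 2, 6 and 8 months.

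In the test across all RNA classes, 51 member rows passed the filter of at least 1 RPM in 2 or more libraries of a fraction, and 42 did not, with 11 to 108 counts each in all. Of the 51, 33 were higher in EVs at an adjusted p under 0.05 and 0 were higher in plasma. Of all 22323 rows tested, 10.0% were called higher in EVs and 7.08% were called higher in plasma. These 33 rows stand for 30 symbols, or 29 RNAs with Snora73 counted once, and their log2 fold changes ran from 1.13 to 3.77. The median over the 51 rows was 2.05, beside -0.02 over all rows tested. It was 1.42 with RPM scaling and 1.26 with total count scaling, and 0.95, beside 0.14 over all 326 rows of that test, with snoRNA and scaRNA rows only.

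A member that passed the filter only through its EV libraries was bound to lean that way, and 10 of the 51 did so. Both rows of Gm25820 are among these 10. Among the 37 members that passed in both fractions, 23 were higher in EVs, where the background was 11.1%, and 0 were higher in plasma, where it was 5.97%. The 4 members that passed in plasma alone are included in the 51. Without any filter, 42 of 93 members were higher in EVs (background 3.01%) and 0 higher in plasma (2.31%), and 8 of these 42 came from the rows left untested above. No member separated the fractions wholly, with 0 of 51 having all EV libraries above all plasma libraries (0.0672% of rows tested), while 5 rows, Snora73a, Snora73b, Snora81 and both rows of Gm25820, were higher in EVs in each of the 14 mice (1.48%).

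**Figure D2:**
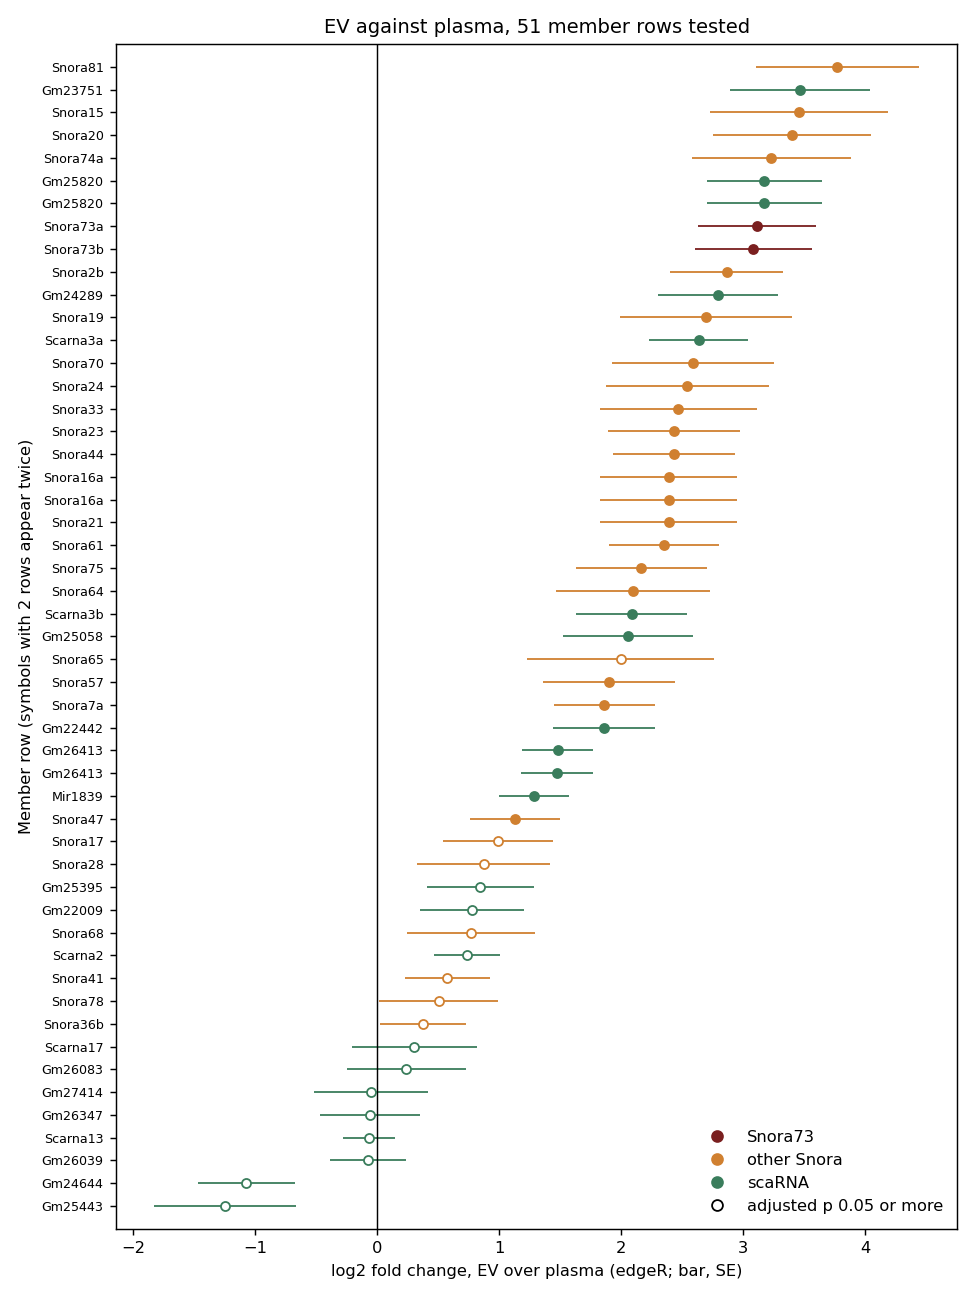
Log2 fold change of EV over plasma with its SE for the 51 member rows tested, ordered by size and coloured by family (filled, adjusted p under 0.05). Snora81 is at the top with 3.77 and Gm25443 at the bottom with -1.25, and no filled point lies left of 0.

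Among the Snora rows other than Snora73, most of them guides of pseudouridylation in ribosomal RNA, 20 of 27 tested rows were higher in EVs (background 10.0%). Of those called, Snora15, Snora23, Snora24 and Snora33 had passed the filter only through EV libraries. Snora81 led, at 4.80 to 296 RPM in EVs (median 17.1) and 0.439 to 13.03 RPM in plasma (median 3.00). The highest EV value came from replicate 2 at 12 months and the next, 62.7 RPM, from an 8-month mouse, while 9 of 14 EV libraries lay above every plasma library. Its log2 fold change was 3.77 (SE 0.67, adjusted p = 1.41e-04, edgeR) and 3.34 without the mouse of 12-month replicate 2.

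Snora20, hosted by the chaperonin gene Tcp1, ranged from 1.00 to 45.99 RPM in EVs (median 3.04) and from 0.177 to 2.29 RPM in plasma (median 0.487). The log2 fold change was 3.40 (SE 0.65, adjusted p = 3.23e-04), with EVs higher in 12 of 14 mice. Snora74a, the U19 snoRNA, ranged from 0.893 to 78.6 RPM in EVs and from 0.177 to 5.31 RPM in plasma, a log2 fold change of 3.23 (SE 0.65, adjusted p = 5.78e-04). Snora2b was measured at 0.978 to 27.2 RPM in EVs (median 4.51) and 0 to 2.41 RPM in plasma (median 1.25). Its log2 fold change of 2.87 (SE 0.46) had an adjusted p of 4.30e-05, and 10 EV libraries exceeded the highest plasma value.

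One host can carry several members. Snhg12, a noncoding host gene, carries Snora16a, Snora44 and Snora61, whose log2 fold changes were 2.39 (SE 0.56), 2.43 (SE 0.50) and 2.35 (SE 0.45), with adjusted p-values of 0.00262, 7.53e-04 and 3.24e-04. Snora16a itself ranged from 2.01 to 78.3 RPM in EVs and from 1.06 to 12.7 RPM in plasma, and plasma was the higher fraction in 1 mouse, replicate 1 of 2 months. Across members, 7 of 10 tested rows with a Snhg host and 5 of 7 with a ribosomal protein host were higher in EVs. Beside these stood 33 of all 51 members tested and 10.0% of all rows tested. The 7 include both rows of Snora16a and the near-copies Snora73a and Snora73b. These host groups, like Snora44 and Snora61, were picked after their values were seen. Snora7a, in Rpl32, had a log2 fold change of 1.86 (SE 0.42, adjusted p = 0.00167).

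Snora7a values show how far the mice varied. They were 4.28, 6.66 and 2.47 RPM in EVs at 2 months against 2.94, 1.95 and 2.96 RPM in plasma, so in 1 of the 3 pairs plasma was higher. That pair is one of uncertain matching, and with the plasma libraries of replicates 2 and 3 exchanged no mouse of 2 months had more in plasma. At 12 months they were 12.8 and 33.7 RPM in EVs against 0.664 and 5.91 RPM in plasma, where the 0.664 RPM is a single read. EVs were higher in 11 of 14 mice, or 12 with that exchange. Over the 51 rows tested the exchange, chosen after seeing the data, moved the count of mice by 1 for 12 rows and left it for the others, the rows at 14 of 14 included.

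**Figure D3:**
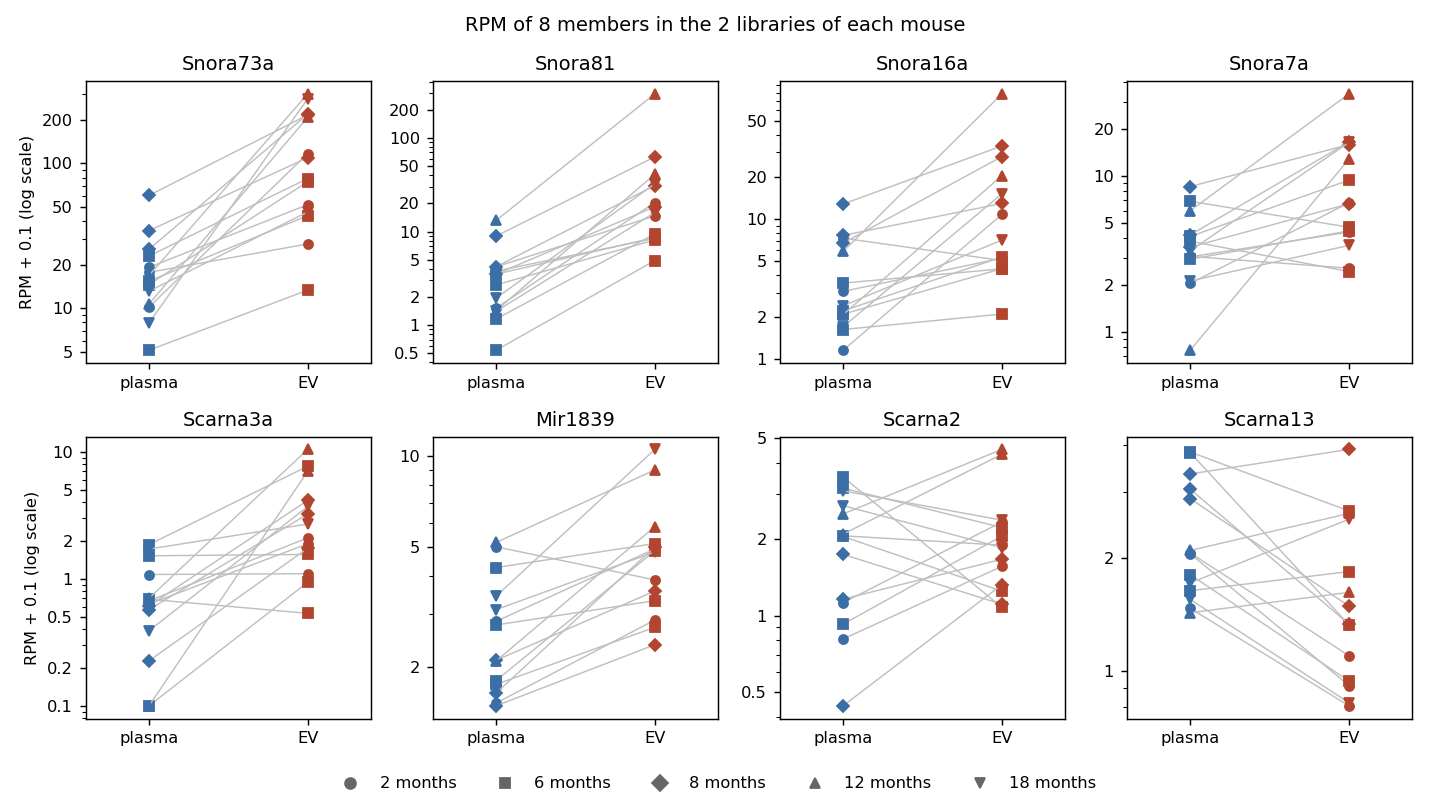
RPM of 8 members in the plasma and EV library of each mouse (RPM + 0.1 on log axes; marker shape, age; grey lines join the libraries of 1 mouse). The lines rise for all 14 mice in Snora73a and Snora81, for 13 in Snora16a, Scarna3a and Mir1839, for 7 in Scarna2 and for 5 in Scarna13.

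The 7 Snora rows tested and not called were Snora65, Snora17, Snora28, Snora68, Snora41, Snora78 and Snora36b. Snora65, in Rpl12, had 1 animal far above the rest: 12-month replicate 2 had 50.8 RPM in EVs and 15.8 RPM in plasma, while the other 13 mice had 0.140 to 5.15 RPM in EVs and 0 to 1.54 RPM in plasma. Its log2 fold change was 1.99 (SE 0.77, adjusted p = 0.0736), and EVs were higher in 13 of 14 mice. With the mouse as a block the value was 2.03 and the adjusted p 2.90e-04, and without 12-month replicate 2 it was 2.01 with an adjusted p of 0.00598. Snora78 had a log2 fold change of 0.50 (SE 0.49, adjusted p = 0.566) and was higher in EVs in 4 of 14 mice.

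The scaRNAs were split, with 11 of 22 tested rows higher in EVs (background 10.0%) and 0 higher in plasma (7.08%). Their median log2 fold change was 1.07. Among the rows called, Gm22442, Gm25058, Gm23751, Gm24289 and both of Gm25820 had passed the filter only through EV libraries. Scarna3a was measured at 0.434 to 10.3 RPM in EVs (median 2.30) and 0 to 1.76 RPM in plasma (median 0.550), with EVs higher in 13 of 14 mice. Its log2 fold change was 2.63 (SE 0.41, adjusted p = 2.46e-05). Scarna3b, a 139-nt relative on chromosome 12 with 85.7% identity to Scarna3a, had a log2 fold change of 2.09 (SE 0.46, adjusted p = 0.00144). Gm25820, in an intron of Khdc4, was low in both fractions, with 228 counts in EVs and 21 in plasma. It was higher in EVs in all 14 mice, with a log2 fold change of 3.18 (SE 0.47, adjusted p = 1.16e-05, edgeR). Its plasma values reached at most 0.658 RPM, so it passed the filter through EVs alone and was bound to lean that way.

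The box types had been listed by name for a few scaRNAs, and Scarna3a and Scarna3b were not on that list. Of those listed, Scarna2 and Scarna17, C/D box scaRNAs that guide 2'-O-methylation of snRNA, and Scarna13, an H/ACA scaRNA, were tested and none was called. Scarna2 ranged from 0.978 to 4.40 RPM in EVs and from 0.342 to 3.40 RPM in plasma, with EVs higher in 7 of 14 mice and a log2 fold change of 0.73 (SE 0.27, adjusted p = 0.0597). With the mouse as a block it was 0.68 with an adjusted p of 0.0408, and with the test run on snoRNA and scaRNA rows alone it turned to -0.15. Scarna13, inside Snhg10, was measured at 0.705 to 3.79 RPM in EVs and 1.33 to 3.73 RPM in plasma. The log2 fold change of Scarna13 was -0.07 (SE 0.21, adjusted p = 0.896), and plasma was the higher fraction in 9 of 14 mice.

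Scarna17 had a log2 fold change of 0.30 (SE 0.51, adjusted p = 0.774), which was -0.29 without 12-month replicate 2 and also negative with RPM scaling, total count scaling and snoRNA and scaRNA rows only. Scarna8 and Scarna6 did not pass the filter, with 70 and 23 counts in all. The lowest value of the 51 was that of Gm25443, a 76-nt scaRNA row on chromosome 19, with a log2 fold change of -1.25 (SE 0.58, adjusted p = 0.152). It had 32 counts in EVs and 67 in plasma, and replicate 2 at 6 months alone gave 20 of the plasma counts. Gm25443 was called higher in plasma with snoRNA and scaRNA rows only (-1.93, adjusted p = 0.0142, edgeR), with the mouse as a block and no filter (-1.27, adjusted p = 0.0444) and without 6-month replicate 3 (-1.60, adjusted p = 0.0466). Members with the ACA letters near the end were called higher in EVs in 25 of 34 tested rows and those without in 8 of 17. Of all rows tested 10.0% were so called. Within the scaRNA rows alone these counts were 7 of 11 and 4 of 11, and the difference was not tested.

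The miRNAs inside members can be set beside their parents. RefSeq places 14 mature miRNAs within 8 members on GRCm38, and the sequences of the 5p arms inside Mir1839, Scarna3a and Scarna3b follow, with the seed (bases 2 to 8) in capitals.
mmu-miR-1839-5p: aAGGUAGAuagaacaggucuug
mmu-miR-1843b-5p: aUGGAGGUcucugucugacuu
mmu-miR-1843a-5p: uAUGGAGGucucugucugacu
The annotated starts of the last pair lie 1 base apart, so their seeds differ. The row of mmu-miR-1839-5p had 228 counts in EVs and 103 in plasma, a log2 fold change of 1.10 (SE 0.35, adjusted p = 0.0268), higher in EVs in 12 of 14 mice. Its parent row Mir1839 had 605 and 239 counts, ranged from 2.27 to 10.4 RPM in EVs and from 1.39 to 5.07 RPM in plasma, and had a log2 fold change of 1.28 (SE 0.29, adjusted p = 0.00175). With the total count as scaling, that of Mir1839 was 0.75 with an adjusted p of 0.0851. Whether reads of the miRNA are also counted in the parent row was not stated in the sources.

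The other tested miRNA of this kind, mmu-miR-664-3p inside Snora36b, had a log2 fold change of 0.32 (SE 0.36, adjusted p = 0.633), beside 0.37 (SE 0.35, adjusted p = 0.553) for Snora36b. The rows mmu-miR-1843b-5p and mmu-miR-1843a-5p had 52 and 58 counts in EVs against 14 and 10 in plasma and did not pass the filter. The other 10 miRNA rows had 1 to 49 counts in EVs and were not tested either.

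Other RNAs of the same pathways also differed between fractions. Ribosomal RNA, the target of the Snora guides, had 164 of 202 tested rows raised in EVs against 6 in plasma. Spliceosomal snRNA, the target of scaRNAs, had 79 of 408 rows raised in EVs and 17 in plasma. Of the C/D box Snord rows 25 of 40 were higher in EVs and 0 in plasma, a share of 62.5% beside 64.7% for the members. Terc, the H/ACA RNA of telomerase, had adjusted p-values of 0.493 and 0.514 in its 2 rows, with log2 fold changes of 0.33 in both.

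Markers of blood cells and tissues were measured beside these results. Of the 5 miRNAs listed for red cells 1, mmu-miR-144-3p, was higher in EVs, and their summed level was 540 to 4555 RPM in EVs and 741 to 3326 RPM in plasma. Of the 3 platelet miRNAs 1 was higher in EVs (sums of 115 to 642 and 75.4 to 397 RPM), as was 1 of the 2 white cell miRNAs tested of 3 listed (95.6 to 430 and 62.8 to 222 RPM). Of the 2 liver miRNAs 1 was higher in EVs, and of the 3 muscle miRNAs 0. The nuclear long RNAs Malat1 and Neat1 had 2 of 8 rows higher in EVs, both of Neat1, with sums of 151 to 329 RPM in EVs and 137 to 248 RPM in plasma. None of the markers was absent throughout, and their part in the results on the members was not tested.

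Age was then examined within each fraction. In EVs the mean Snora sums were highest at 8 and 12 months. Summed Snora73 was 130 ± 92.6 RPM in the 3 mice of 2 months (mean ± SD), 105 ± 61.4 in the 4 of 6 months and 361 ± 124 in the 3 of 8 months. It was 492 ± 110 RPM in the 2 mice of 12 months and 324 ± 331 in the 2 of 18 months. The mice of 18 months lay far apart at 558 and 90.0 RPM. The other Snora rows summed to 73.0 ± 17.1, 43.0 ± 7.42, 175 ± 91.5, 527 ± 518 and 106 ± 43.8 RPM at the same ages, and the scaRNAs to 20.3 ± 1.47, 30.3 ± 16.3, 29.6 ± 12.8, 61.8 ± 23.4 and 29.4 ± 1.39 RPM.

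In plasma the sums of Snora73 were 31.1 ± 9.36, 29.1 ± 15.04, 80.1 ± 35.6, 26.5 ± 7.41 and 20.7 ± 7.41 RPM from 2 to 18 months. The 3 plasma libraries of 8 months, at 51.6 to 120 RPM, were all above those of every other age, of which the highest was 46.3 RPM. This age was not set in advance, the share of all rows so separated was not computed, and the separation was not tested. The sum is that of near-copies and may hold the same reads more than once. The plasma scaRNA sums stayed between 13.6 and 32.3 RPM.

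A straight trend with age passed the test for no member. In EVs, edgeR called 0 of 47 members and 0 of 18570 rows (background 0%), while 10 members and 1077 rows had an unadjusted p below 0.05. By DESeq2, 0 members and 18 rows passed. Of the 47 slopes 43 were positive, and their median was 0.12 log2 units per month beside -0.0040 over all rows tested. The lean depended on the scaling. With RPM scaling 43 of 47 slopes were positive with a median of 0.108, and with DESeq2 43 of 47 with a median of 0.124. With total count scaling 38 of 47 slopes were positive with a median of 0.057, and with snoRNA and scaRNA rows only 25 of 47 were, with a median of 0.0078. The TMM median of 0.12 fell to 0.04 without 12-month replicate 2, with 35 of 45 slopes positive. It was 0.28 without the 18-month mice. There 37 of 46 members and 698 of all 18302 rows had an unadjusted p under 0.05, and 0 members were called.

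The smallest p-values in EVs were those of Gm22442, Snora70 and Snora47. Gm22442, in an intron of the chromatin remodeller gene Chd3, ranged from 0.0996 to 2.11 RPM, with a slope of 0.18 log2 units per month (SE 0.06, adjusted p = 0.664). Snora70, in Rpl10, was at 0.398, 0.162 and 1.65 RPM in the mice of 2 months and 0.140 to 1.07 RPM in those of 6 months. It reached 1.01 to 4.36 RPM at 8 months, 3.54 and 25.1 RPM in the pair of 12 months, and 3.08 and 2.68 RPM in the oldest pair. Of the 7 EV libraries of 8 months and older, 6 were above all 7 of the younger mice for Snora70. As Snora70 was named for its small p-value in these same libraries, this lends the trend no further weight. The cut at 8 months was not set in advance, and the share of all rows so separated was not computed. The slope of Snora70 was 0.32 (SE 0.11, adjusted p = 0.685), and that of Snora47 was 0.13 (SE 0.05, adjusted p = 0.758).

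By the rank limit that the study applied in its tissues, Spearman's rho with age over 0.5, 16 of the 47 members in EVs rose, among them both Snora73 rows, Snora81 and Snora70, where 1.59% of all rows tested did. Under -0.5 there were 0 members (1.20% of rows). In plasma 3 of 41 members had a rho over 0.5 (5.98% of rows) and 0 one under -0.5 (2.09%). These counts carry no p.

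**Figure D4:**
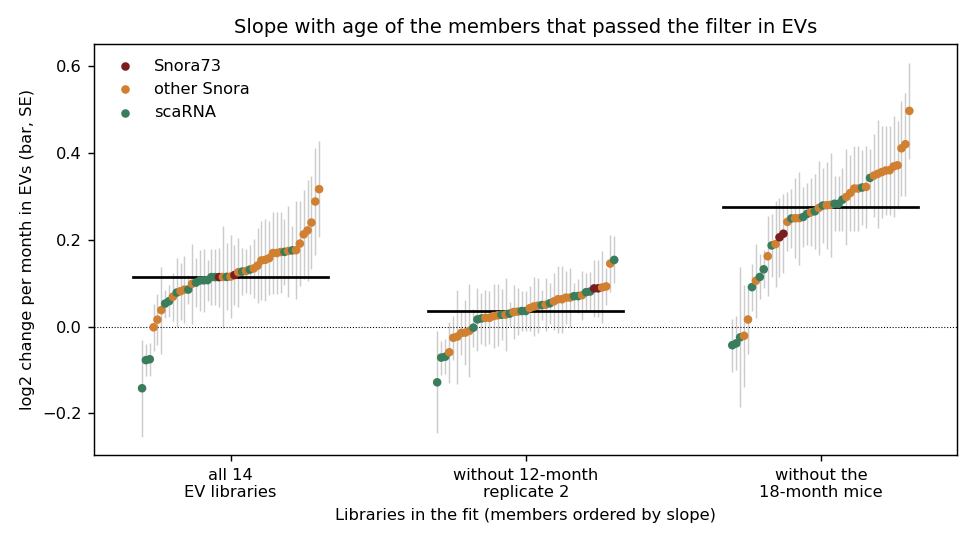
Slopes with age (log2 change per month, with SE) of the members that passed the filter in EVs, ordered by size, in all 14 EV libraries, without 12-month replicate 2 and without the 18-month mice; black bars are the medians, 0.12, 0.04 and 0.28. Most points lie above 0 in each set, and the height of the whole set depends on which mice are in the fit.

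On the RPM scale that 12-month library held the highest EV value for 36 of the 47 members that passed in EVs, in 24 of 29 Snora rows and 12 of 18 scaRNA rows. As a share of all counts it did so for 14 of the 47, and replicate 2 of 8 months for 17. It was also the deepest library and, in RPM, had the highest summed level of the red cell, platelet and white cell miRNAs among EV libraries. These marker sums were not taken as a share of all counts. What the depth and the markers have to do with the member levels of this library was not tested. Replicate 4 at 6 months was the reverse for Snora73, with the lowest EV sum, 26.3 RPM, and a scaRNA sum of 54.0 RPM, the second highest.

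In plasma, 0 of 41 members had a trend with age by edgeR, where 0.0139% of 21632 rows were called rising and 0% falling, and 1 member had an unadjusted p under 0.05. DESeq2 also called 0 members. That member was Snora78, at 0 to 3.86 RPM, with a slope of 0.10 log2 units per month (SE 0.04, adjusted p = 0.681). Snora65 followed with 0.20 (SE 0.11, adjusted p = 0.764), which turned to -0.03 without 12-month replicate 2, and Scarna2 with 0.06 (SE 0.03, adjusted p = 0.786). Without a filter on low values Snora65 was called by edgeR, at 0.19 with an adjusted p of 0.0385, in a setting that called 0.557% of 65868 rows rising and 0.301% falling. The median slope of the 41 was -0.0027.

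The age trends of the fractions could not be shown to differ. In the test of the interaction, 0 of 51 members and 0 of 22323 rows (background 0%) passed, while 3 members and 893 rows had an unadjusted p below 0.05. By DESeq2, 0 members and 6 rows passed. The 3 were Snora47 (slope in EVs minus slope in plasma 0.20, SE 0.07), Snora70 (0.30, SE 0.13) and Scarna13 (0.09, SE 0.04), each with an adjusted p of 1. Of the 51 differences 43 were positive with a median of 0.11, and with snoRNA and scaRNA rows only 32 were, with a median of 0.023. For Snora73a the difference was 0.16 (SE 0.10), and with the mouse as a block and no filter on low values, a setting chosen after seeing the data, it was 0.17 with an adjusted p of 0.0228 (edgeR), as it was for Snora73b, where 0.0472% of 80435 rows were called steeper in EVs. With the block and the filter kept, the adjusted p of Snora73a was 0.793.

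The ratio of EV to plasma within a mouse shows where the fractions stood apart most. For summed Snora73 it was 2.75, 11.4 and 1.52 in the mice of 2 months and 2.83, 5.03, 3.41 and 2.73 in those of 6 months. The mice of 8 months gave 3.56, 8.48 and 3.17, the pair of 12 months 19.5 and 18.0, and the oldest pair 36.2 and 3.47. For the scaRNA sum it stayed between 0.817 and 2.42 in all mice. The 3 highest Snora73 ratios were those of mice of 12 or 18 months, and the other mouse of 18 months lay among the younger ones.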

How the data were processed

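EV-enriched and EV-depleted fractions of 14 mice were compared in 28 libraries, each assigned by the submitters' labels. The authors deposited estimated counts per RNA in 10 classes, not normalized, and, as a second table, an RPM signal made by dividing each count by 1 number per library. That number is not the total count. Per the labels' processing notes mm10 and R 4.0.4 were used, and for the aligner and annotation of these libraries the sources used here name none. All table columns belonged to these samples.

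Counts were rounded and tested with edgeR 4.0.16 (TMM over all rows tested, glmQLFit and glmQLFTest, limma 3.58.1, R 4.3.3) on rows of all classes that reached 1 RPM in over 10% of a fraction's libraries (2 or more of 14). P-values were adjusted by Benjamini-Hochberg over all rows tested, with a threshold of 0.05. The fractions were compared with age in months as covariate over 28 libraries, age trends within each fraction, and their difference as an interaction. The SE is the log2 fold change divided by the root of the F statistic. DESeq2 1.42.0, Python 3.11.15, numpy 2.4.6, pandas 2.3.3, scipy 1.17.1, biopython 1.88 and matplotlib 3.10.9 did the rest.

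Libraries of 1 mouse pair because they come from 1 animal, and the mouse entered as a block in an alternative. As a check, deviations of both libraries from their age means correlated at -0.114 to 0.508 over 17879 rows. The closest replicates differed beyond sampling noise, with a chi-square of 10.7 per degree of freedom. Members, lists and the rule for named RNAs were chosen with earlier results of these data known. The rule names the 10 members of highest mean RPM, Snora73 and all Scarna symbols, the 5 smallest p-values per direction between fractions, the 3 smallest per age test, and the largest and smallest fold change. Alternatives were other scalings, filters, age codings, the block, and leaving out mice or libraries under 2000000 counts. P-values of the age trends within a fraction measure the spread between these mice only. Those between the fractions and of the interaction treat the 28 libraries as independent, except where the mouse is named as a block.

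The fits were tested on simulated data. Depth limits the plasma values most, with 50 member counts in the shallowest library.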

Additional observations from a re-analysis of the deposited data

Results flagged for a closer look

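Among the 4 mice of 6 months, 58 sets of values were examined for a sample far from the others, and chance marks about 1 in 20. Replicate 4 stood apart in EVs for Scarna3a (7.59 RPM, the nearest other at 1.45) and for Scarna3b (3.79 RPM, nearest 0.765). In plasma replicate 3 stood apart for Scarna6 (0.354 RPM, all others at 0) and replicate 4 for Snora65 (1.54 RPM, all others at 0), which are 3 and 7 reads.

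For 3 members the difference between EVs and plasma had opposite signs in all mice of 2 ages, and these contrasts between single ages were not tested. The mean difference of Scarna2, EV minus plasma, was 2.11 RPM at 12 months and -0.789 RPM at 18 months. For Scarna13 it was 0.362 RPM at 12 months and -0.921 RPM at 2 months. That of Snora78 was 3.36 RPM at 12 months, against -1.06 RPM at 6 months, -0.131 RPM at 8 months and -1.92 RPM at 18 months.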

How the results depend on the processing

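The count of 33 members higher in EVs ranged from 22 to 42 over the alternatives. It was 35 with DESeq2 (11.4% of all rows tested), 31 with RPM scaling (4.52%), 22 with total count scaling (2.98%) and 22 with snoRNA and scaRNA rows only (24.5% of 326 rows). Under all 5 scalings 21 rows of 19 symbols were called, and the share of all rows was not computed. Among the 21 were Snora15, Snora23, Gm23751, Gm24289 and both rows of Gm25820, which had passed the filter only through EV libraries. Members higher in plasma were 0 at the settings reported. They were 1 with RPM scaling (19.5% of all rows) and 1 with total count scaling (8.24%), Gm24644 both times. With snoRNA and scaRNA rows only they were 3 (14.1%), namely Gm24644, Gm25443 and Gm26039. Requiring 1 RPM in 7 of 14 libraries of a fraction gave 1 (9.28%). The replicate block by mouse with no filter, an alternative chosen after seeing the data, gave 2 (1.96%). Leaving out 1 mouse at a time gave 31 to 34 higher in EVs and 0 to 1 higher in plasma. Without 12-month replicate 2 these were 31 (9.68% of all rows) and 0 (6.34%). The mouse as a block alone gave 35 (11.1%) and 0 (7.53%), and it added Snora65 and Scarna2 and changed no other call of the members. Age trends by rank gave 16 members rising in EVs (1.59% of all rows) and 3 in plasma (5.98%). Without a filter 1 member rose in plasma (0.557%). With the block and no filter 2, both Snora73 rows, had a steeper slope in EVs (0.0472%). Leaving out 1 mouse at a time gave 0 in each age test. The causes were not tested.

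Of 754 values of named members under alternatives, 708 kept their direction and side of the threshold. Those that changed sign were Scarna2 with snoRNA and scaRNA rows only (-0.15), Scarna13 without the 2-month mice of uncertain pairing (0.0079) and when 1 mouse was left out (-0.16 to 0.052), and Scarna17 with RPM scaling (-0.29), total counts (-0.57), snoRNA and scaRNA rows only (-0.87) and 1 mouse left out (-0.29 to 0.72). Snora78 did so with RPM scaling (-0.093), total counts (-0.42), snoRNA and scaRNA rows only (-0.94), the block (-0.018), the block with no filter (-0.024) and 1 mouse left out (-0.29 to 0.71), and the plasma slope of Snora65 with 1 mouse left out (-0.028 to 0.27). Low depth in plasma limits all members under about 1 RPM.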
